A study of Rattus norvegicus with 16 samples.

Results

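The pyramidal layers of CA2 and CA3 lie side by side in the hippocampus, and the comparison described here (CA2vsCA3) asked which transcripts part these neighbours and at what level the same transcripts stood in CA1 and in the dentate gyrus (DG). It used the 8 libraries labelled CA2 or CA3 of the 16 in the series, which were 7 samples (3 of CA2 and 4 of CA3) after CA2 replicates 2 and 4 had been summed. Untreated male Wistar rats, aged 3 months, gave all samples, and no group carried a treatment or an altered gene. Laser capture microdissection (LCM), a laser cutting of chosen tissue under the microscope, freed the CA1, CA2 and CA3 pyramidal layers and the DG granular layer from frozen brain sections of 4 rats, with 4 libraries of each subfield. The captured layers also hold glia, interneurons and vessels, so that a lower level in a layer may be fewer cells of a type or less RNA per cell, which cannot be told apart in such samples.

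CA3 pyramidal neurons receive the mossy fibres of DG granule cells and excite one another through recurrent collaterals. CA2 pyramidal neurons receive weak mossy fibre input, are driven strongly by the entorhinal cortex, resist the usual forms of long-term potentiation at their Schaffer collateral synapses, and are known for a part in social memory. Both send axons to CA1, whose neurons carry the output of this circuit.

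CA2 replicates 2 and 4 differed by no more than sampling noise (chi-square over its degrees of freedom, 0.9995 for 11864 genes, chi-square p = 0.515). The value was 5.10 to 47.2 for every other pair within CA2 or CA3. CA2 replicates 2 and 4 were counted as 1 sample, called the summed pair below. DG replicates 2 and 4, whose value was 1.035 (chi-square p = 0.00271 over 12602 genes) against 6.284 to 12.41 for other DG pairs, were also summed. CA2 and CA3 libraries held 4467280 to 11933279 counts, and 3 counts, the limit that a count of 0 allows, were worth 0.258 to 0.489 CPM (read counts on a per-library scale normalised by TMM, the trimmed mean of M-values) in these samples. CA3 replicate 3 stood apart, since this chi-square value was 18.6 to 47.2 against the other CA3 samples and its most abundant gene took 26.3% of its counts, against 15.9% to 21.1% in the other CA2 and CA3 libraries. Of the 20 CA2 identity markers fixed for this work, 3 (Amigo2, Cacng5 and Ntf3) had an identifier, and all 3 were higher in the CA2 samples. Amigo2 and Cacng5 are in the CA2 marker list of the study, and Ntf3 is in its DG list. No CA3 identity marker had an identifier. Both labels were thus checked only with genes the study itself chose on these samples. The 14 genes it lists for CA2 summed to 342.0 to 453.5 CPM in CA2 and 42.2 to 61.8 in CA3. The 14 it lists for CA3 summed to 27.0 to 43.0 CPM in CA2 and 275.6 to 305.2 in CA3.

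A total of 1113 differentially expressed genes (DEGs, called at a Benjamini-Hochberg adjusted p below 0.05 by the quasi-likelihood test of edgeR) were found among 15749 tested, which is 7.07%. Of these, 577 were higher in CA2 (3.66% of the genes tested) and 536 were higher in CA3 (3.40%). Replicate 1 of CA2 and of CA3 deviated together from their subfield means (correlation r = 0.70). CA2 replicate 3 matched CA3 replicates 3 and 4 about alike (0.24 and 0.22), and the summed pair matched CA3 replicates 2 and 4 at 0.35 and 0.55. A pairing by number was thus clear for number 1 only. With the replicate number as a block the count was 2223 DEGs (1157 higher in CA2 and 1066 higher in CA3) when the summed pair was given number 2. It was 2572 when the pair was given number 4. Without the block, the count depended on single samples: it was 631 without CA2 replicate 3 and 730 without the summed pair. Among DEGs 1093 had all CA2 samples above or all below all CA3 samples, as did 2777 genes (17.6%) of all those tested.

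**Figure D1:**
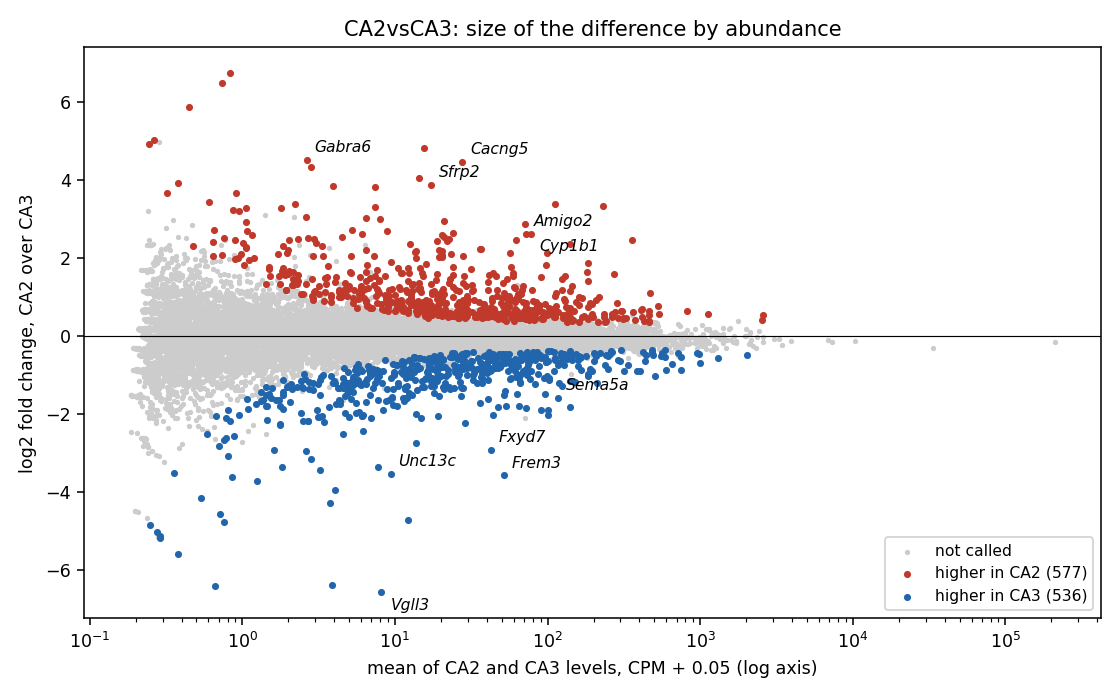
Log2 fold change of CA2 over CA3 (vertical axis) against the mean of the CA2 and CA3 levels in CPM plus 0.05 (horizontal log axis), with 1 point for each of the 15749 genes tested. Red points are the 577 DEGs higher in CA2 and blue points the 536 higher in CA3, and the widest differences lie among genes of low and middle abundance on both sides, where fitted folds of genes with few counts depend on the prior count.

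Both directions held a like number of DEGs at each level of abundance. With the CPM of the higher subfield as the measure, 8 of the DEGs higher in CA2 lay under 1 CPM, 129 between 1 and 10, 325 between 10 and 100 and 115 over 100. These were 0.31%, 3.0%, 4.69% and 5.95% of the genes tested at each level. For DEGs higher in CA3 the same counts were 8, 138, 287 and 103 (0.31%, 3.21%, 4.14% and 5.33%). The share called was thus highest over 100 CPM in both directions. CPM is not adjusted for transcript length, so these bins rank counts and not molecules.

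The size of the difference shrank with abundance in both directions. The median absolute log2 fold change of DEGs higher in CA2 was 1.46 between 1 and 10 CPM, 0.84 between 10 and 100 and 0.64 over 100. For DEGs higher in CA3 it was 1.48, 0.84 and 0.61. Small differences pass the test more readily where counts are high.

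The sides parted among abundant genes with wide differences, in counts that were not tested against each other. A log2 fold change above 1 was found for 265 of 577 DEGs higher in CA2 and for 245 of 536 higher in CA3. Above 2, the counts were 90 and 60. Over 100 CPM, 9 DEGs higher in CA2 had a log2 fold change above 2 and 1 DEG did so in CA3.

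A symbol could be given to 64 DEGs (5.75%), those in the marker lists of the study, and the other 1049 (546 higher in CA2 and 503 in CA3) have only an identifier here. The names below are thus drawn from genes the study selected as markers of a subfield on these samples, and their direction is not independent evidence. All 64 were also called in both fits with the replicate block. CA2 values are given below in the order replicate 1, summed pair and replicate 3, and CA3 values in the order replicate 1 to 4.

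The leading genes with a symbol were Cacng5 (ENSRNOG00000003288), which encodes an auxiliary subunit of AMPA receptors, on the CA2 side and Frem3 (ENSRNOG00000039152), an extracellular matrix protein, on the CA3 side. The window from 250 bases before to 50 after the annotated start is shown for these and for Sfrp2 and Unc13c, as leading genes of each direction with a single start in the table (RefSeq, build GRCr8, gene strand). Cacng5 lies at chr10:93336618-93336917 on the minus strand, Sfrp2 at chr2:171387286-171387585 on the plus strand, Frem3 at chr19:44271088-44271387 on the minus strand and Unc13c at chr8:83553773-83554072 on the minus strand. Capitals mark an E-box, for which the letters CAGCTG were searched on both strands of each window. The TATA box (TATAAA) and the GC box (GGGCGG) were searched in the same way.
Cacng5: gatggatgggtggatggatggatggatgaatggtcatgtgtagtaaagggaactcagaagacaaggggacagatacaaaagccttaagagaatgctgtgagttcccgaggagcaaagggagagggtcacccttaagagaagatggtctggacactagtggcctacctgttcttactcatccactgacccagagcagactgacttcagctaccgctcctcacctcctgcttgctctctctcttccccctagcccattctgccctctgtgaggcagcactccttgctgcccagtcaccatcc
Sfrp2: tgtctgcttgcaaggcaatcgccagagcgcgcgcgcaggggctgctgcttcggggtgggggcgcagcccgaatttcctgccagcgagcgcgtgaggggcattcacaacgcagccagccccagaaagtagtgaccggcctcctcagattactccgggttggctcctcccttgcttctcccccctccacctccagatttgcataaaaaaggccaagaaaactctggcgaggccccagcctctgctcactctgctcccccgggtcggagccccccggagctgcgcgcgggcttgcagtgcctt
Frem3: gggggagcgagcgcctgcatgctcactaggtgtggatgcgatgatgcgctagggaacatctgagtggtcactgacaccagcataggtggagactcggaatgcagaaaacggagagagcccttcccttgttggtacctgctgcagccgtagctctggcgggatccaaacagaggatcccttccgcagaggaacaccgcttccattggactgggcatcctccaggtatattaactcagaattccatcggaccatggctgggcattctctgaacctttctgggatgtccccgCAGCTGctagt
Unc13c: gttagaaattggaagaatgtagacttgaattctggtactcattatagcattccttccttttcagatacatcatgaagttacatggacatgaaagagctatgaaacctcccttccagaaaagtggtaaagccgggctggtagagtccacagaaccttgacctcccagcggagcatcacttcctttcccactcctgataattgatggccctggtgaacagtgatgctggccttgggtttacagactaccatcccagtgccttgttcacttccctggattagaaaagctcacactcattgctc
The E-box letters were found once, in Frem3, and begin 39 bases after the start, and neither of the other motifs was found in the 4 windows. Of 33469 promoters of this length, 15.1% hold the E-box letters, 14.2% those of the TATA box and 33.1% those of the GC box.

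On the CA2 side the gene with a symbol and the smallest p was Cacng5. It was at 57.1, 43.5 and 57.9 CPM in CA2 and at 1.74, 1.55, 3.14 and 3.43 in CA3. The samples were far apart, and the log2 fold change was 4.46 ± 0.22 (SE; adjusted p = 8.48e-08). Cacng5 stood at 2.36 to 9.57 CPM in CA1 and at 0.185 to 0.590 in DG.

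Sfrp2, a secreted modulator of Wnt signalling, was at 36.4, 24.0 and 36.2 CPM in CA2 and at 1.36, 2.41, 1.57 and 3.59 in CA3. Every CA2 sample was above every CA3 sample, which was a condition of its choice by size. The log2 fold change was 3.88 ± 0.25 (SE; adjusted p = 5.95e-07 in edgeR). CA1 samples held 1.85 to 7.95 CPM and DG samples 0.246 to 0.524. Ntf3, neurotrophin-3, followed another order: 11.3, 9.22 and 9.93 CPM in CA2, 2.75 to 2.94 in CA3, 1.54 to 3.71 in CA1 and 37.4 to 49.6 in DG. Its log2 fold change was 1.83 ± 0.19 (SE; adjusted p = 3.86e-05 in edgeR).

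Amigo2, a leucine-rich repeat adhesion protein long used to mark CA2, was at 153.0, 96.1 and 123.5 CPM in CA2 and at 22.2, 18.2, 19.9 and 20.2 in CA3. The log2 fold change was 2.63 ± 0.15 (SE; adjusted p = 3.56e-07 in edgeR). Cyp1b1, a cytochrome P450, was at 138.4, 112.2 and 153.7 CPM in CA2 and at 12.8, 25.6, 24.3 and 24.6 in CA3. Both were abundant in CA2 and present in CA3 at a clear level, so that CA3 was not empty of either transcript. Their CA1 levels were 5.75 to 20.5 CPM (Amigo2) and 7.29 to 29.4 CPM (Cyp1b1), and in DG they were 3.197 to 3.33 and 0.740 to 1.85.

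Subunits and receptors with low levels formed a further set. Gabra6, the alpha6 subunit of GABA-A receptors best known from cerebellar granule cells, was at 5.64, 5.02 and 4.26 CPM in CA2 and at 0.248, 0.0860, 0.105 and 0.489 in CA3. Glra1, a glycine receptor subunit, was at 0.941, 2.56 and 1.82 CPM in CA2 and at 0.0860 to 0.489 in CA3. Casr, the calcium-sensing receptor, was at 4.86, 2.87 and 4.26 CPM in CA2 and at 0.209 to 0.602 in CA3.

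The CA3 values of all 3 lie near the level of a few counts. The samples did not overlap, which is also so for 1093 of all 1113 DEGs. The log2 fold changes were 4.53 ± 0.42 (SE) for Gabra6, 2.92 ± 0.55 for Glra1 and 3.39 ± 0.40 for Casr (adjusted p = 1.22e-05, 0.00462 and 0.000107 in edgeR). Fam72a, at 3.29, 2.97 and 3.24 CPM in CA2 and 0.105 to 0.496 in CA3, had a log2 fold change of 3.28 ± 0.40 (SE). Papln, which encodes papilin of the extracellular matrix, was at 9.72, 17.7 and 14.7 CPM in CA2 against 0.868 to 3.75 in CA3. AABR07001734.1, which carries a clone name only, was at 29.8, 25.4 and 34.7 CPM in CA2 against 0.523 to 2.45 in CA3, the largest fold among named DEGs higher in CA2 (log2 4.84 ± 0.30, SE).

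Some transcripts higher in CA2 than in CA3 were far higher in another subfield. Adcy1, a calcium-stimulated adenylyl cyclase, was at 114.1, 149.1 and 138.2 CPM in CA2 and at 22.8, 52.1, 40.7 and 73.9 in CA3, with 773.4 to 968.5 in DG. Its log2 fold change was 1.51 ± 0.26 (SE; adjusted p = 0.00269 in edgeR). Arhgap12 was at 58.0, 113.5 and 85.9 CPM in CA2 and at 24.9, 57.1, 33.4 and 30.5 in CA3, with 344.7 to 431.7 in CA1 (log2 fold change 1.23 ± 0.25, SE).

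Met, the hepatocyte growth factor receptor, was at 10.97, 31.0 and 21.4 CPM in CA2 and at 1.49, 10.7, 1.26 and 1.96 in CA3, with 104.6 to 147.6 in CA1. Htr5b, a serotonin receptor, was at 6.90, 16.2 and 12.2 CPM in CA2 and at 1.49, 6.53, 1.15 and 1.47 in CA3, with 45.8 to 56.0 in CA1. In both genes CA3 replicate 2 stood far above the other CA3 samples and came close to the lowest CA2 sample. Their log2 fold changes were 2.35 ± 0.54 and 2.05 ± 0.46 (SE; adjusted p = 0.0149 and 0.0137 in edgeR), and neither was called without CA2 replicate 3, without the summed pair, without CA3 replicate 3 or in DESeq2. Without CA3 replicate 2 the log2 fold changes were 3.80 ± 0.39 and 3.13 ± 0.35 (SE; adjusted p = 0.000119 and 0.000218 in edgeR). That sample was singled out for its high values in these genes, so that leaving it out widens the difference by construction.

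Rgs9, a regulator of G protein signalling, was the single named DEG whose samples overlapped: 0.941, 3.69 and 2.03 CPM in CA2 and 0.516 to 0.979 in CA3. Its adjusted p was 0.0298 in edgeR, and the call was lost in 7 of 21 alternatives. Cdh13, a cadherin anchored in the membrane by lipid, was at 37.9, 39.6 and 30.8 CPM in CA2 and at 20.6, 23.9, 20.9 and 29.5 in CA3. The difference was small, at log2 0.61 ± 0.15 (SE; adjusted p = 0.0237 in edgeR), and its call was lost in 6 of 21 alternatives. In DG, Cdh13 was at 309.6 to 364.1 CPM.

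**Figure D2:**
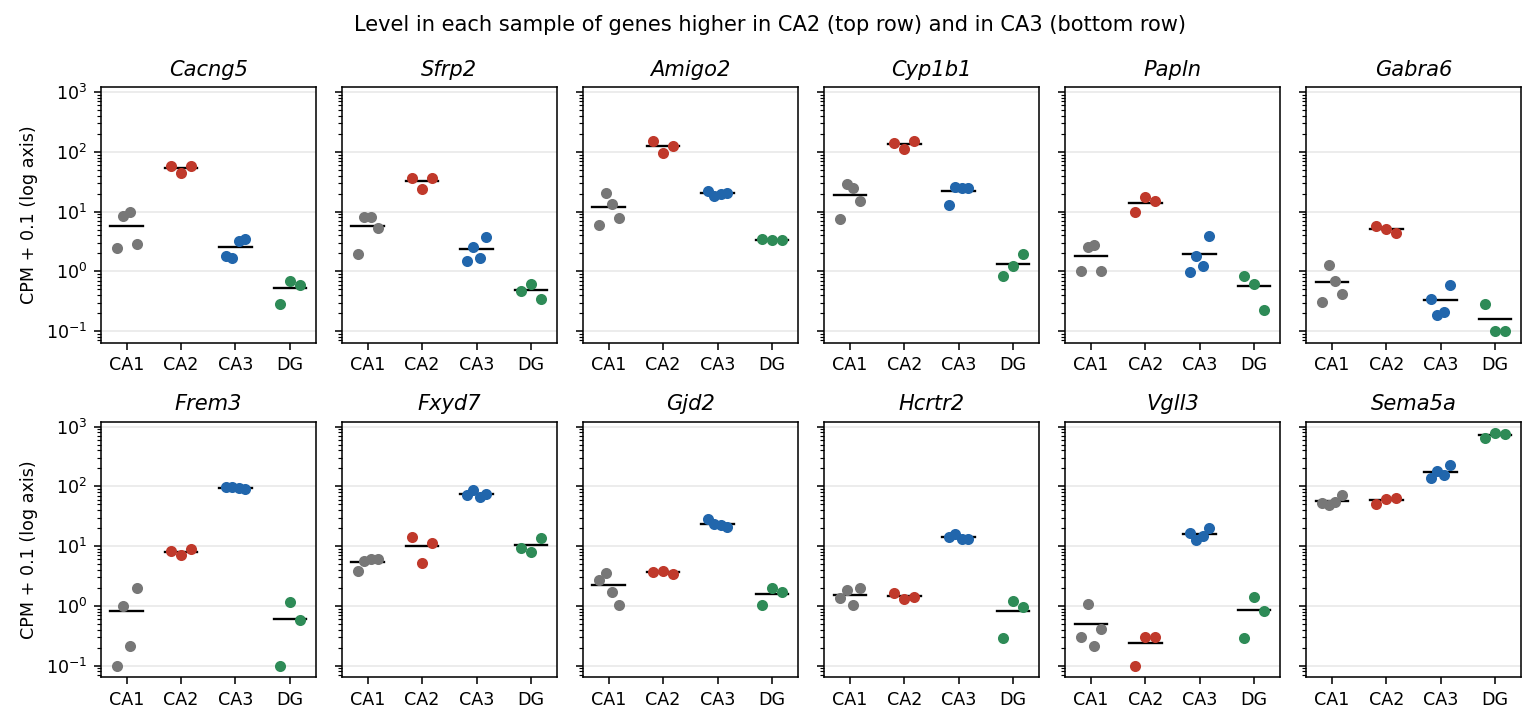
Level of 12 named DEGs in each sample of CA1, CA2, CA3 and DG, in CPM plus 0.1 on a log axis, with 1 point per sample and a line at the mean. The top row shows genes higher in CA2, whose CA2 points lie above those of every other subfield, and the bottom row genes higher in CA3, of which Sema5a alone is highest in DG.

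On the CA3 side the gene with the smallest p was Frem3, at 97.3, 98.9, 95.4 and 90.7 CPM in CA3 and at 8.15, 7.07 and 8.81 in CA2. CA3 samples lay within a narrow band far above CA2, and the log2 fold change of CA2 over CA3 was -3.58 ± 0.14 (SE; adjusted p = 8.73e-09 in edgeR). CA1 held 0 to 1.86 CPM and DG 0 to 1.05, so that the CA2 level, although low, was above that of both.

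Vgll3 and Bhlhe23 held few counts in CA2. Vgll3, a cofactor of TEAD factors, was at 16.4, 12.6, 15.0 and 20.4 CPM in CA3 and at 0, 0.205 and 0.203 in CA2. The CA2 samples held 4 counts in all, and the log2 fold change was -6.57 ± 0.39 (SE; adjusted p = 3.56e-07 in edgeR). Bhlhe23, a basic helix-loop-helix factor, was at 6.69, 8.17, 7.63 and 7.99 CPM in CA3 and had 2 counts in CA2, all in replicate 3. The ratio of CA3 over CA2 from the summed counts was 95.6, with a counting interval (95%) of 26.2 to 794. Arhgap36 likewise held 3 counts in CA2, and its ratio was 13.2, with an interval of 4.28 to 65.8. Such intervals cover counting error only.

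Genes of electrical and chemical signalling were also among those higher in CA3. Gjd2, connexin 36 of neuronal electrical synapses, was at 27.9, 23.6, 22.1 and 21.2 CPM in CA3 and at 3.61, 3.69 and 3.34 in CA2. Fxyd7, a brain regulator of the sodium pump, was at 72.2, 87.1, 65.6 and 74.2 CPM in CA3 and at 13.95, 5.12 and 11.4 in CA2. Hcrtr2, orexin receptor 2, was at 13.9, 15.9, 13.0 and 12.9 CPM in CA3 and at 1.57, 1.23 and 1.32 in CA2.

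In all 3 the CA3 samples stood clear of the CA2 samples, which was a condition of their choice by size. The log2 fold changes were -2.74 ± 0.17 (SE) for Gjd2, -2.91 ± 0.25 for Fxyd7 and -3.36 ± 0.22 for Hcrtr2 (adjusted p = 4.73e-07, 6.25e-06 and 5.29e-07 in edgeR). CA1 and DG were low too, at 0.925 to 3.44 CPM of Gjd2, 3.799 to 13.8 of Fxyd7 and 0.185 to 1.86 of Hcrtr2. Tacr2, neurokinin receptor 2, was at 6.20, 4.81, 1.99 and 3.10 CPM in CA3 and at 0.627, 0.615 and 1.32 in CA2, a log2 fold change of -2.19 ± 0.45 (SE; adjusted p = 0.0076 in edgeR).

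Unc13c, a Munc13 protein that primes synaptic vesicles, was at 18.1, 5.84, 25.9 and 19.1 CPM in CA3 and at 1.25, 1.74 and 1.32 in CA2. CA3 replicate 2 was the lowest CA3 sample by a wide margin and still above CA2. The log2 fold change was -3.54 ± 0.47 (SE; adjusted p = 0.00027 in edgeR), and the DG mean of 28.9 CPM (25.9 to 34.2) was above the CA3 mean of 17.2.

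Of the axon guidance genes, Sema5a, a semaphorin, was at 139.6, 180.5, 155.4 and 230.8 CPM in CA3, 49.9, 61.7 and 63.7 in CA2 and 634.8 to 767.4 in DG. Unc5d, a netrin receptor, was at 49.6, 46.3, 41.6 and 57.7 CPM in CA3, 32.0, 30.7 and 26.8 in CA2 and 207.8 to 243.7 in DG. Both were thus higher in CA3 than in CA2 and highest in DG, with log2 fold changes of -1.59 ± 0.17 and -0.71 ± 0.14 (SE; adjusted p = 4.57e-05 and 0.00536 in edgeR).

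Mx1, an interferon-induced GTPase, varied among CA3 samples: replicates 1 and 3 held 39.2 and 41.7 CPM and replicates 2 and 4 held 21.3 and 19.6. CA2 samples were at 11.3, 6.15 and 5.37 CPM, and the log2 fold change was -2.05 ± 0.31 (SE; adjusted p = 0.00084 in edgeR). Col8a2, a collagen, was at 6.07, 4.30, 10.8 and 8.81 CPM in CA3 and 0.205 to 0.941 in CA2. Olr1353, of the large olfactory receptor family in which near copies can share reads, was at 1.63 to 2.85 CPM in CA3 and 0.101 to 0.314 in CA2.

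The marker lists of the study behaved unlike each other. All 14 CA2-list genes were higher in CA2, with a median log2 fold change of 2.96, and all 14 CA3-list genes were higher in CA3, with a median of -3.14, which follows from how these lists were chosen. The median over all genes tested was 0.00. In the remaining CA2-list and CA3-list genes, absolute log2 fold changes of those with more than 3 CA2 counts were 2.19 to 2.93, among them Spp1, osteopontin, at 2.13 to 5.96 CPM in CA2 and 0.163 to 0.774 in CA3, and Cyp26b1, which breaks down retinoic acid, at 4.22 to 7.22 CPM in CA3 and 1.11 to 1.25 in CA2. The CA2-list gene Glipr2 lost its call in 6 of 21 alternatives.

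Of 28 tested CA1-list genes, 5 (17.9%, against 3.66% of all genes) were higher in CA2 than in CA3 (Arhgap12, Met, Htr5b, Lyzl4 and RGD1563354) and none was higher in CA3, with a median of 0.50. The replicate block gave 9 higher in CA2 (32.1%, against 7.35% of all genes) with the summed pair as number 2 and 11 (39.3%, against 8.39%) as number 4. The summed level of the CA1 list was 240.0, 512.1 and 366.9 CPM in CA2 and 123.1, 334.0, 144.6 and 128.5 in CA3, against 1983 to 2224 in CA1. CA3 replicate 2 therefore lay within the range of CA2, and it was the highest CA3 sample in 16 of 19 CA1-list genes that reached 1 CPM in CA3, against 3377 of 13547 of all genes tested.

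Wfs1, which encodes wolframin, is an example. It was at 53.8, 132.9 and 85.4 CPM in CA2 and at 8.68, 105.9, 13.3 and 13.9 in CA3. The groups overlapped through CA3 replicate 2 alone, and the log2 fold change was 1.32 ± 0.64 (SE; adjusted p = 0.301 in edgeR). Without that sample it was 2.93 ± 0.30 (SE; adjusted p = 0.000122 in edgeR).

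Htr1b, a serotonin receptor, was at 3.76, 9.42 and 6.59 CPM in CA2 and at 0.372, 4.90, 0.418 and 0.489 in CA3, and its adjusted p in edgeR was 0.0834 with all samples and 0.000248 without CA3 replicate 2. Wfs1 and Htr1b were both called in each fit with the replicate block (adjusted p at most 0.000545 in edgeR). Without CA3 replicate 2, 9 CA1-list genes were higher in CA2, the 5 above included, and the median was 0.95. The list, Wfs1 and Htr1b move towards CA2 by construction when the CA3 sample highest in them is left out. The count of CA1-list genes higher in CA2 was 2 without the summed pair (median 0.32) and 2 without CA2 replicate 3 (median 0.53). The part of CA1 tissue in these values was not tested.

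Of 191 tested DG-list genes, 12 (6.28%, against 3.66% of all genes) were higher in CA2 and 19 (9.95%, against 3.40%) were higher in CA3, with a median log2 fold change of -0.07. The replicate block gave 28 and 24 (27.2% called, against 14.1% of all genes) with the summed pair as number 2 and 21 and 28 (25.7%, against 16.3%) as number 4. In all 31 of these the DG mean was above both subfields, as the choice of the list makes likely. The DG list summed to 1106 to 1405 CPM in CA2, to 1116 to 1326 in CA3 replicates 1 to 3 and to 1683 in CA3 replicate 4. That sample was the highest of CA3 in 83 of 135 DG-list genes that reached 1 CPM in CA3, against 3187 of 13547 of all genes tested, and held 19.2 CPM of Prox1, a defining factor of granule cells, against 3.22 to 9.71 in the other CA3 samples. Without CA3 replicate 4 there were 16 higher in CA2 and 15 higher in CA3, and without CA3 replicate 2 there were 11 and 14. Leaving out the CA3 sample highest in this list moves the list towards CA2 by construction, and the part of DG tissue in these values was not tested.

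DG-list genes higher in CA2 included Mkx, a homeobox factor, at 5.17, 4.10 and 4.26 CPM in CA2, 0.0860 to 1.14 in CA3 and 19.8 to 21.96 in DG. Those higher in CA3 included Trpc6, a cation channel, at 13.3, 16.9, 14.1 and 19.9 CPM in CA3, 6.58 to 9.01 in CA2 and 128.7 to 142.8 in DG, and Kitlg, the ligand of the Kit receptor, at 10.8 to 14.8 CPM in CA3, 5.53 to 7.84 in CA2 and 86.6 to 110.3 in DG. These are named after their values were seen. The DG granule cell markers fixed for this work (7 with an identifier) summed to 99.4 to 143.8 CPM in CA2 and 189.2 to 327.3 in CA3. Without Sema5a the other 6 summed to 49.5 to 82.2 CPM in CA2 and 49.6 to 96.5 in CA3, and these ranges overlap. Only Sema5a of the 7 was called without the block, and their median log2 fold change was -0.28. With the block, 2 were higher in CA2 and 2 in CA3 with the summed pair as number 2, and 0 and 2 as number 4.

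**Figure D3:**
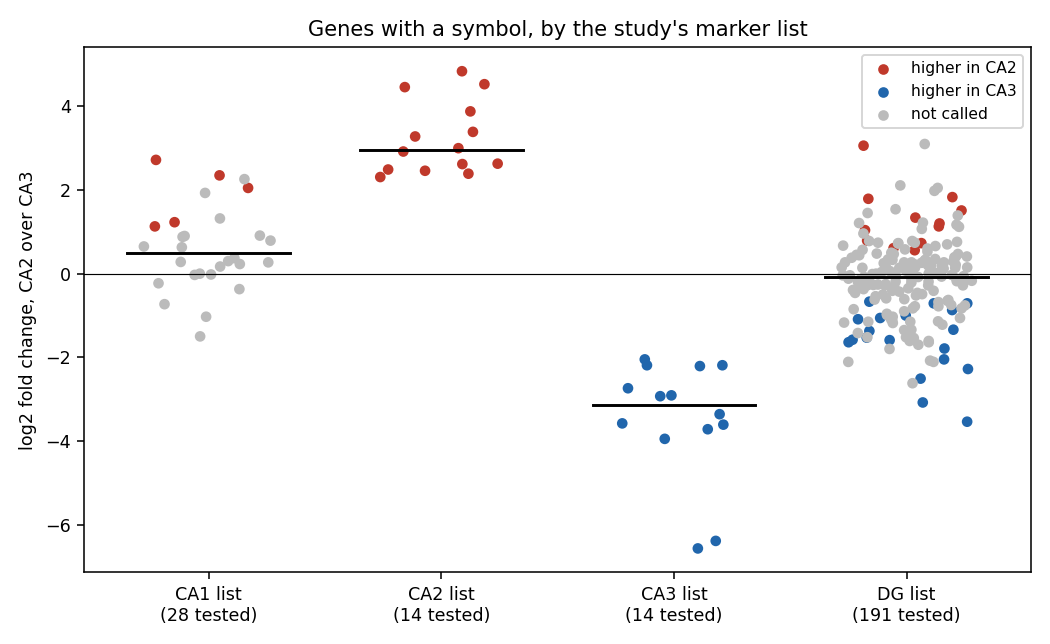
Log2 fold change of CA2 over CA3 for the 247 tested genes with a symbol, by the marker list of the study they belong to, with 1 point per gene and a line at the median. Red and blue points are DEGs higher in CA2 and in CA3 and grey points were not called, and the CA1 list holds red points but no blue ones.

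**Figure D4:**
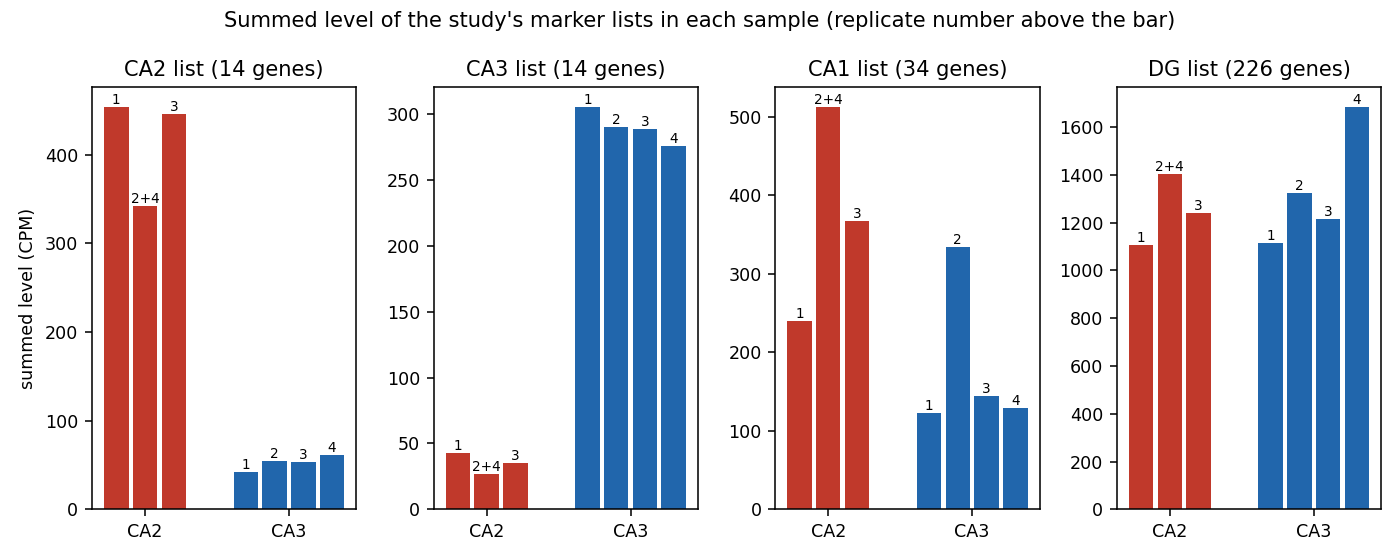
Summed level in CPM of the 4 marker lists of the study in each CA2 sample (red) and CA3 sample (blue), with the replicate number above each bar. CA3 replicate 2 rises to 334.0 CPM in the CA1 list and CA3 replicate 4 to 1683 CPM in the DG list, whereas the CA2 and CA3 lists separate the groups in every sample.

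By family, counts were small, since 17 of the 31 lists fixed for this work had a member with an identifier, and all members come from the marker lists of the study, of whose 247 tested genes 25.9% were called (7.07% of all genes). The counts below are from the fit without the block unless it is named. GABA-A and glycine receptor genes gave 2 of 4 higher in CA2 (Gabra6 and Glra1) and none higher in CA3. Modulatory receptors gave 2 of 9 higher in CA2 (Casr and Htr5b) and 2 higher in CA3 (Hcrtr2 and Tacr2). Growth factors gave 2 of 4 higher in CA2 (Sfrp2 and Ntf3), axon guidance genes 2 of 3 higher in CA3 (Sema5a and Unc5d) and transcription factors 2 of 5 higher in CA3 (Vgll3 and Bhlhe23). These list names are loose, since Sfrp2 is a modulator of Wnt signalling and Vgll3 a cofactor of TEAD factors. The block gave 3 GABA-A and glycine receptor genes higher in CA2 and 1 growth factor higher in CA3 by either number of the summed pair. It gave 4 modulatory receptors and 2 transcription factors higher in CA2 with the pair as number 2, and 3 and 1 as number 4.

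Cadherins gave 1 of 3 (Cdh13) and regulators of G protein signalling 1 of 4 (Rgs9), both higher in CA2, and vesicle release genes gave 1 of 2 (Unc13c), higher in CA3. With the block and the summed pair as number 2, 1 vesicle release gene was called higher in CA2 and 1 higher in CA3. The voltage-gated calcium channel list had Cacng5 alone, which encodes an auxiliary subunit of AMPA receptors. None of 3 potassium channel genes (Kcna3, Kcna5 and Kcnc4) and none of 4 neuropeptide genes (Cartpt, Cbln1, Pdyn and Penk) was called, and with the block 2 of the neuropeptide genes were called by either number of the summed pair, all higher in CA2. Kcnc4 was called with it as number 4 (adjusted p = 0.0291 in edgeR). Grik3, Tnc and Btg2, the lone members of the lists of glutamate receptors, perineuronal nets and immediate early genes, were called in none of these 3 fits. Of the 4 CA1 identity markers with an identifier none was called without the block, and 3 or 4 were with it, by the number of the summed pair. Glial, vascular, interneuron and mitochondrial lists had no identifier and were not analysed here.

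Among DEGs without a symbol, 72 had a log2 fold change above 2 in favour of CA2 and 41 in favour of CA3. Abundant DEGs without a symbol also differed in their CA1 and DG levels. ENSRNOG00000001628 was at 289.7, 149.2 and 173.1 CPM in CA2 and at 15.99 to 22.5 in CA3, a log2 fold change of 3.40 ± 0.21 (SE). Its CA1 level was low, at 35.1 to 41.3 CPM, and its DG level was near that of CA2, at 154.2 to 205.6. ENSRNOG00000015616 was at 504.6, 337.1 and 411.1 CPM in CA2 and at 32.4 to 53.5 in CA3, a log2 fold change of 3.33 ± 0.19 (SE), with 173.0 to 215.9 in CA1 and 57.2 to 68.5 in DG.

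On the CA3 side ENSRNOG00000024998 was at 138.6 to 194.1 CPM in CA3 and 34.2 to 43.2 in CA2, a log2 fold change of -2.02 ± 0.14 (SE). ENSRNOG00000005457 was at 120.8 to 190.5 CPM in CA3 and 31.1 to 48.4 in CA2, with a log2 fold change of -1.91 ± 0.19 (SE). CA1 and DG were lower than CA2 in both, at 17.4 to 32.8 CPM for the former and 8.66 to 17.4 for the latter.

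Across all DEGs, the CA1 mean was nearer the CA2 mean than the CA3 mean in 353 of the 577 higher in CA2 and in 425 of the 536 higher in CA3. For each DEG the CA1 mean on a log scale was placed against the CA2 and CA3 means. Of 577 DEGs higher in CA2, CA1 was above both subfields in 234 (40.6%, against 43.7% of all genes tested with a log2 fold change above 0). It lay between them in 119 nearer CA2 and 111 nearer CA3, and below both in 113 (19.6%, against 34.3%). The 353 nearer CA2 were 61.2%, against 54.0% of all genes tested with a log2 fold change above 0.

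In DEGs higher in CA3, CA1 was below both subfields in 292 of 536 (54.5%, against 48.7% of all genes tested with a log2 fold change below 0). It lay between them in 133 nearer CA2 and 62 nearer CA3, and above both in 49 (9.1%, against 29.0%). The 425 nearer CA2 were 79.3%, against 61.2% of all genes tested with a log2 fold change below 0. DEGs are selected for a gap between CA2 and CA3 that most genes tested do not show. A wide gap makes it likelier that another subfield falls between them. These shares can thus differ from those of all genes through the selection alone, and the differences were not tested.

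DG did not side with either subfield across both directions. In DEGs higher in CA2, DG was below both in 267 (46.3%, against 39.4% of all genes with a log2 fold change above 0). It was above both in 126 (21.8%, against 45.2%) and nearer CA3 in 364 (63.1%, against 47.8%). In DEGs higher in CA3, DG was below both in 224 (41.8%, against 43.8% of all genes with a log2 fold change below 0). It was above both in 169 (31.5%, against 41.4%) and nearer CA2 in 296 (55.2%, against 51.2%). DG was thus nearer the lower subfield of the pair in most DEGs of each direction, but for DEGs higher in CA3 the share was close to that of all genes. The same selection bears on these DG shares, and the differences between them were not tested.

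A DEG need not be highest in CA2 or CA3. Of DEGs higher in CA2, 293 had their highest mean in CA2, 185 in CA1 and 99 in DG, and the lowest mean was in CA3 for 280 and in DG for 248. Of DEGs higher in CA3, 345 had their highest mean in CA3, 162 in DG and 29 in CA1, and the lowest mean was in CA1 for 196, in CA2 for 172 and in DG for 168. Named examples of each kind are Cacng5 (highest in CA2), Arhgap12 (CA1), Adcy1 (DG), Frem3 (CA3) and Sema5a (DG). The direction of a DEG keeps its lower subfield from being the highest. The same counts were not made for all genes tested, so that no trait particular to DEGs can be read from them.

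**Figure D5:**
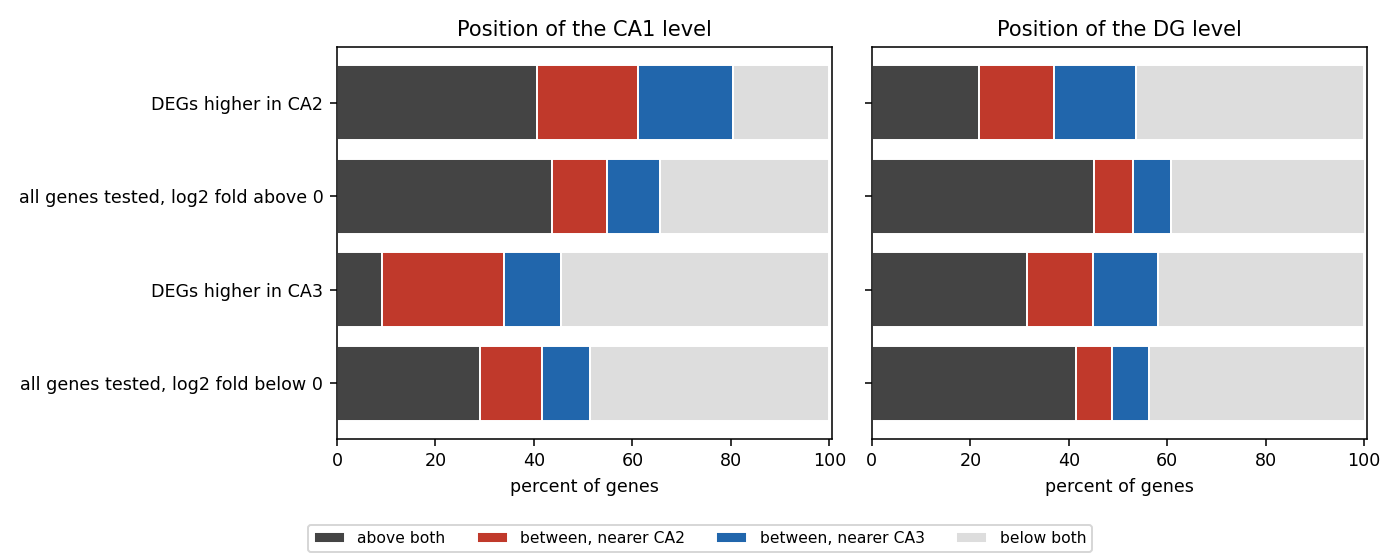
Percent of genes in which the CA1 mean (left) or the DG mean (right) lay above both CA2 and CA3, between them nearer CA2 or nearer CA3, or below both, for DEGs of each direction and for all genes tested of the same sign. CA1 lies above both in 40.6% of DEGs higher in CA2, against 43.7% of all genes tested of that sign. For DEGs higher in CA3 it does so in 9.1%, against 29.0%. DEGs are selected for a gap between CA2 and CA3, and such shares can differ from those of all genes through that selection alone.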

How the data were processed

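Per the labels, total RNA of laser-captured layers was made into stranded libraries, and by the methods of the study the authors aligned paired reads to the Rnor6 assembly with STAR and deposited the raw count of reads on each of 32883 Ensembl genes in each library. The counting program and its strand setting are not given in the sources used here, so that overlapping and antisense genes cannot be told apart. Tables of the authors' own comparisons (log2 fold changes and p-values) were not used.

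Library totals in CA2 and CA3 were 4467280 to 11933279 counts, so that low genes are less precise in the smaller libraries. Repeated libraries (CA2 and DG replicates 2 and 4) were summed. Genes with more than 10 counts over the CA2 and CA3 libraries were fitted in edgeR 4.0.16 (limma 3.58.1, R 4.3.3) on the 3 CA2 and 4 CA3 samples, with TMM factors from all samples, quasi-likelihood F-tests and Benjamini-Hochberg adjusted p under 0.05. The common dispersion was 0.0208. The SE given was the absolute log2 fold change over the square root of F. CA1 and DG levels were placed by mean log2 CPM with 0.5 CPM added. Tables and plots were made in Python 3.11.15 with pandas 2.3.3, scipy 1.17.1 and matplotlib 3.10.9. The fits were tested on simulated data.

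The study used 4 rats and the labels number 4 libraries in each subfield, and the pairing check compared deviations from the subfield means over 8688 genes. Replicate 1 of CA2 correlated with replicate 1 of CA3 at r = 0.70. For number 3 the value was 0.24, about that of CA2 replicate 3 with CA3 replicate 4 (0.22). The summed pair correlated with CA3 replicates 2 and 4 at 0.35 and 0.55, so that its rat cannot be told and both replicate block fits were run.

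Symbols were taken from the marker lists of the study (288 identifiers, 247 tested), since the reference table holds no Ensembl identifier. Genes were named by a rule among DEGs with a symbol. It took the largest 8 in each direction at 10 CPM or more in the higher subfield with no overlap of CA2 and CA3 samples. It also took the 5 most abundant with a log2 fold change over 1 and the 3 largest under 10 CPM. The smallest p and DEGs of the fixed lists completed it. The members and lists were chosen with earlier results of these data known. Promoter windows were from RefSeq (GRCr8), with an entry for 177 of 247 genes.

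Alternatives were median-of-ratios size factors, DESeq2 1.42.0, TMM from the CA2 and CA3 libraries alone, no filter, filterByExpr, all subfields in a single fit, the repeated libraries separate or 1 of them alone, the replicate block, thinning to 3216512 counts and leaving out each sample. Leaving number 1 out of both subfields was added after seeing the data.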

Additional observations from a re-analysis of the deposited data

Results flagged for a closer look

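Among the genes named by the rule, 82 groups of 4 samples were examined for a sample far from the others (Dixon's ratio above its 95% limit), and 7 were found, where chance gives about 1 in 20 groups. CA3 replicate 2 was far above the other CA3 samples in Met, at 10.66 CPM against 1.255 to 1.957, and in Htr5b, at 6.532 CPM against 1.15 to 1.488, and both genes belong to the CA1 list. CA3 replicate 1 was low in Cyp1b1, at 12.77 CPM against 24.26 to 25.61. In CA1, replicate 1 was low in Unc13c, at 0.4107 CPM against 1.547 to 1.631, and replicate 2 was high in Unc5d, at 17.03 CPM against 8.044 to 9.548. CA1 replicate 1 was also the single CA1 sample with counts of Bhlhe23, at 0.1027 CPM, and of Olr1353, at 0.4107 CPM, which rest on a few counts.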

How the results depend on the processing

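The replicate block moved the count of DEGs most, to 2223 (1157 higher in CA2 and 1066 in CA3) with the summed pair as number 2, to 2572 (1322 and 1250) with it as number 4 and to 3014 (1492 and 1522) with all columns separate, against 1113 (577 and 536) without it. In the first of these fits 1108 of the 1113 DEGs were kept, in the others 1109 and 1113. Leaving out a sample gave 631 to 1029 DEGs, 328 to 544 of them higher in CA2 and 303 to 521 higher in CA3, with the lowest of each without CA2 replicate 3, and without the summed pair there were 730, of them 367 higher in CA2. The other alternatives gave 786 (all samples thinned to the lowest total) to 1459 DEGs (repeated CA2 libraries as separate samples), and DESeq2 gave 1182, of which 1049 were shared. The share of DEGs higher in CA2 was 49.3% to 54.9% over all 21 alternatives, and every DEG shared with the reported fit kept its direction. Of the 64 named DEGs, 41 were called in all 21 alternatives and none reversed; leaving out a sample lost 70 of 448 calls and the other 14 alternatives lost 30 of 892. Each subfield had 3 or 4 samples, and at under 1 CPM, where 3 counts are worth 0.258 to 0.489 CPM, only wide differences could pass. The cause of these shifts was not tested.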

Other observations

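Some genes of the fixed lists had wide differences that missed the threshold in edgeR, and are named here after their values were seen. Rgs13, a regulator of G protein signalling, was at 5.49, 0.410 and 1.52 CPM in CA2 and at 0 to 0.516 in CA3 (log2 fold change 3.10 ± 0.90, SE; adjusted p = 0.0555), and the groups overlapped. C1ql2, a synaptic organiser of mossy fibres, was at 0.784, 5.02 and 0.507 CPM in CA2 and at 5.23 to 8.15 in CA3 without overlap (adjusted p = 0.0712 in edgeR, and 0.00132 and 0.0019 with the replicate block). Drd1, a dopamine receptor, was at 1.88 to 2.66 CPM in CA2 and 0.979 to 1.29 in CA3, also without overlap (adjusted p = 0.0886 in edgeR). CA1 samples themselves varied in the CA2 list, whose summed level was 21.1, 75.9, 67.5 and 38.7 CPM in CA1 replicates 1 to 4, and 6.29 to 7.13 CPM in DG.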
